A study of Mus musculus with 14 samples.

Results

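The genes described here carry symbols of proteins of the cytosolic ribosome, and their transcripts were counted in mouse triceps muscle. A gene was included when its symbol was Rpl or Rps followed by a number and at most 1 letter, or was Rplp0, Rplp1, Rplp2 or Rpsa, with Rps6k kinases and symbols containing -ps left out. This took 82 of 52550 gene rows, of which 78 had enough counts to be tested. The rule used symbols and no measurement. All 14 mice were male. There were 3 WT and 3 FLExDUX4 controls without a wheel, and 4 WT and 4 FLExDUX4 runners with 6 weeks of voluntary wheel access. FLExDUX4 mice carry an inducible human DUX4 transgene and model facioscapulohumeral muscular dystrophy, and the WT mice were their littermates. The labels give no age, no Cre driver, no running distance and no batch, and mice were numbered within a group by record order. Record titles also carry a number for each mouse, whose meaning is not given. The labels do not say which mice shared a litter, so no mouse of one group can be tied to a given mouse of another.

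A ribosome joins a small subunit, built around Rps proteins and decoding the message, to a large subunit, built around Rpl proteins and forming the peptide bond. The acidic stalk proteins Rplp1 and Rplp2 sit on Rplp0 and recruit elongation factors. Messages of these genes typically start with a C followed by a run of pyrimidines, the terminal oligopyrimidine or TOP motif, through which mTORC1 controls their translation. Striated muscle is known for Rpl3l, a copy of Rpl3 that takes its place in muscle ribosomes.

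The letters around the annotated transcription start were searched for such a tract. It could lie anywhere in the window, so a match is not a message that begins with the TOP motif. Of the 82 genes, 60 had an entry among the RefSeq promoters (GRCm38.p6). The motif searched was a C followed by at least 7 more C or T, on the strand of the gene, from 50 bases before to 50 bases after the annotated start. It was found in 81.7% of these 60 promoters and in 28.7% of all 27025 promoters. On the other strand it was found in 20% and 30.8%, and in 30.4% of the promoters of 69 mitochondrial ribosomal protein genes on the gene's strand. Ending the window 30 bases after the start gave 56.7%, 24.1% and 27.5% on the gene's strand. The motif CCGGAAGT, on either strand, was in 10% of the ribosomal protein promoters, 10.1% of the mitochondrial ones and 2.59% of all. Printed below from 50 bases before to 30 after the start are the genes that followed the others most (Rpl13, Rps15a) and least (Rpl41) from mouse to mouse, and the paralogs Rps27, Rps27l and Rpl3l. Capitals mark the pyrimidine tract.

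Rpl13 (chr8:123102300-123102379, plus strand): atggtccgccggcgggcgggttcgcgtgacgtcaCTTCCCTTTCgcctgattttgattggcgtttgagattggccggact
Rps15a (chr7:118116118-118116197, minus strand): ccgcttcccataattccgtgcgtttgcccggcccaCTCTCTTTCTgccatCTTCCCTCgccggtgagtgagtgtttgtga
Rps27 (chr3:90213619-90213698, minus strand): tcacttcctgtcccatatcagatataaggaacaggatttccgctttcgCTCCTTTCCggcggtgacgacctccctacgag
Rps27l (chr9:66946036-66946115, plus strand): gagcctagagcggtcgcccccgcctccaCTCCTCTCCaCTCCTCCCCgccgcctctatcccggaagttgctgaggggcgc
Rpl41 (chr10:128549139-128549218, minus strand): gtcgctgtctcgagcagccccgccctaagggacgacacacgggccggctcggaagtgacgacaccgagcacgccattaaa
Rpl3l (chr17:24727776-24727855, plus strand): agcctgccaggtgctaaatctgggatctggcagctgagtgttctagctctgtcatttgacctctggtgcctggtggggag

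Rpl13, Rps15a, Rps27 and Rps27l hold a tract in the printed window. Rpl41 and Rpl3l hold one only in the bases that follow it, up to 50 after the start. A match describes these letters and is not a measured start or a site of control.

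Libraries read the 3′ end of each transcript, so that a transcript gives about 1 read whatever its length. Levels are given as CPM, which are read counts divided by library sizes after TMM scaling, with no division by gene length. They compare genes only as far as the reads of each gene were counted alike. Sharing of 3′ ends with other genes, described below, may prevent that. Gene counts per mouse ran from 3269357 to 6995811, and 0.989% to 1.50% of them fell on the 82 genes. Muscle markers were abundant in every mouse (8 of 8 tested, summed 76630 to 130340 CPM), while the B and T cell markers summed to at most 1.56 CPM, with 2 of 5 at 0, Cd3g among them. Slow-fibre markers summed to 50.2 to 66.3 CPM in the WT control mice and to 215 to 549 CPM in the FLExDUX4 ones. The sums were 150 to 862 CPM in WT runners, and 69.1 to 1133 CPM among FLExDUX4 runners.

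As counted, levels within this one machine were far from equal. Rplp1, of the stalk, was highest at a mean of 604 CPM over all mice, followed by Rps14 (523 CPM), Rpl23a (511 CPM), Rps29 (459 CPM) and Rpl37 (423 CPM). Across the 14 mice Rplp1 ran from 502 to 710 CPM, a ratio of 1.41. The low end held Rpl3 (16.98 CPM), Rpl13a (10.8 CPM), Rpl10a (9.50 CPM), Rps6 (5.94 CPM) and Rps4l (1.44 CPM). Rps6, whose protein is the classical target of S6 kinase, gave only 390 reads over all mice. Rps4l is annotated as a transcribed processed pseudogene. The order at the top is not sharp: the ranges of Rplp1, Rps14 and Rpl23a overlap.

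**Figure D1:**
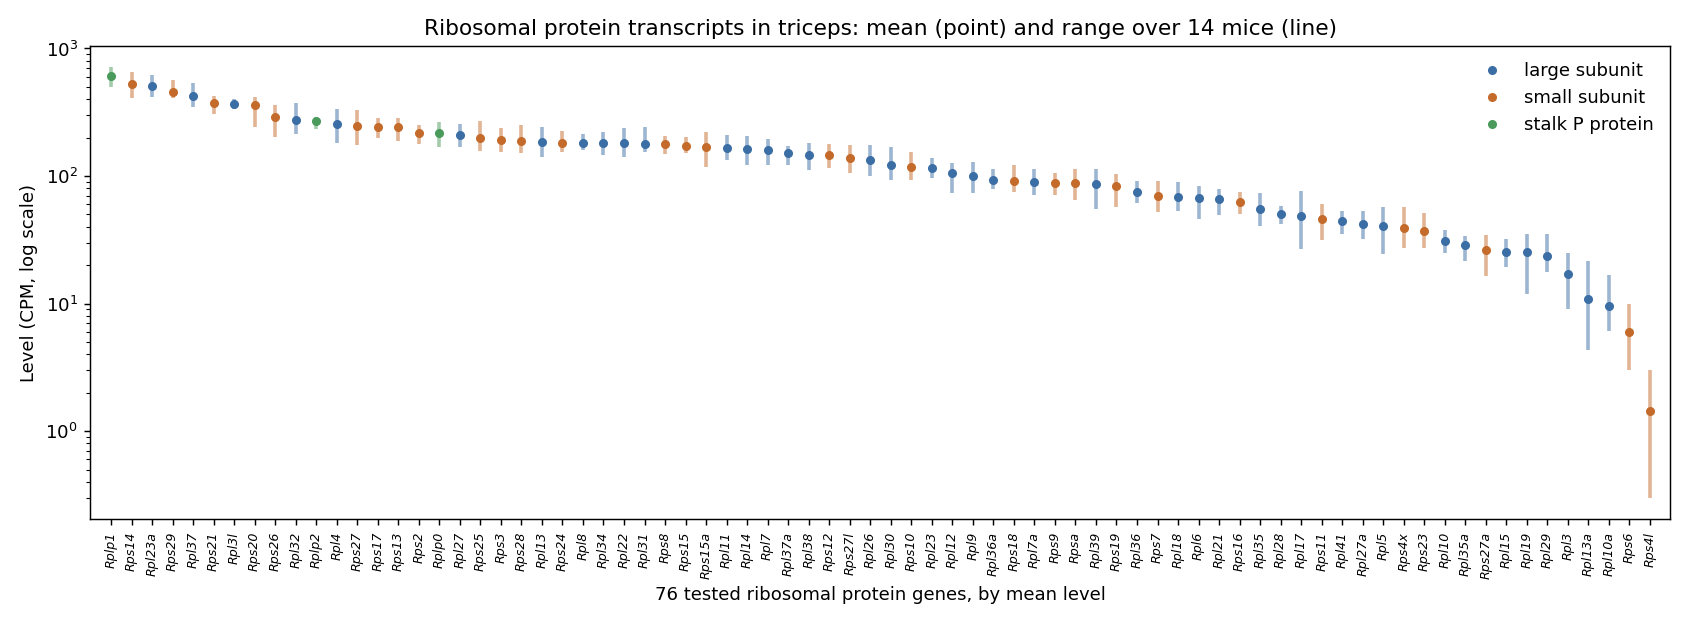
Level of 76 of the 78 tested ribosomal protein genes in CPM on a log axis, as the mean (point) and the range (line) over 14 mice, coloured by subunit; a lowest value under 0.3 CPM is drawn at 0.3. Levels run from 604 CPM for Rplp1 to 1.44 CPM for Rps4l, and Rpl3l has the narrowest range.

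The 4 untested genes were Rpl39l (24 counts over all mice), Rpl6l (13), Rpl24 (3) and Rpl10l (0). Rpl6l is annotated as a processed pseudogene. Rpl10l, a retrogene of Rpl10 known from testis, and Rpl39l, a testis copy of Rpl39, stood against 31.04 CPM for Rpl10 and 86.95 CPM for Rpl39. Rpl24 is a core protein of the large subunit. Of the bases at its 3′ end, 58.3% also belong to exons of Gm28037 on the same strand. Of the 75-base windows of its last 300 bases, 79.2% occur in another gene. Rps10 had a like same-strand overlap (57.6% of bases) and a mean of 118 CPM. The part of the overlap and of the shared windows in the 3 counts of Rpl24 was not tested, and its true level is uncertain.

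The same check was made for all 82 genes, because ribosomal protein genes have many processed copies and 75-base reads were sequenced. In 31 genes at least 50% of the windows were shared with another annotated gene, and their median level was 89.3 CPM. In the other 51 the median was 150 CPM. The 10 highest genes shared a median of 19.1% of their windows, and the 10 lowest tested genes 58.2%. Rps6 shared 81.4%, Rpl3 69.7% and Rpl10a 58.5%. Rpl23a shared 78.8% and was still the third highest, so sharing and a low count did not always go together. How the counting treated reads with several alignments was not given in the sources used here, and its part in the low levels was not tested.

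**Figure D2:**
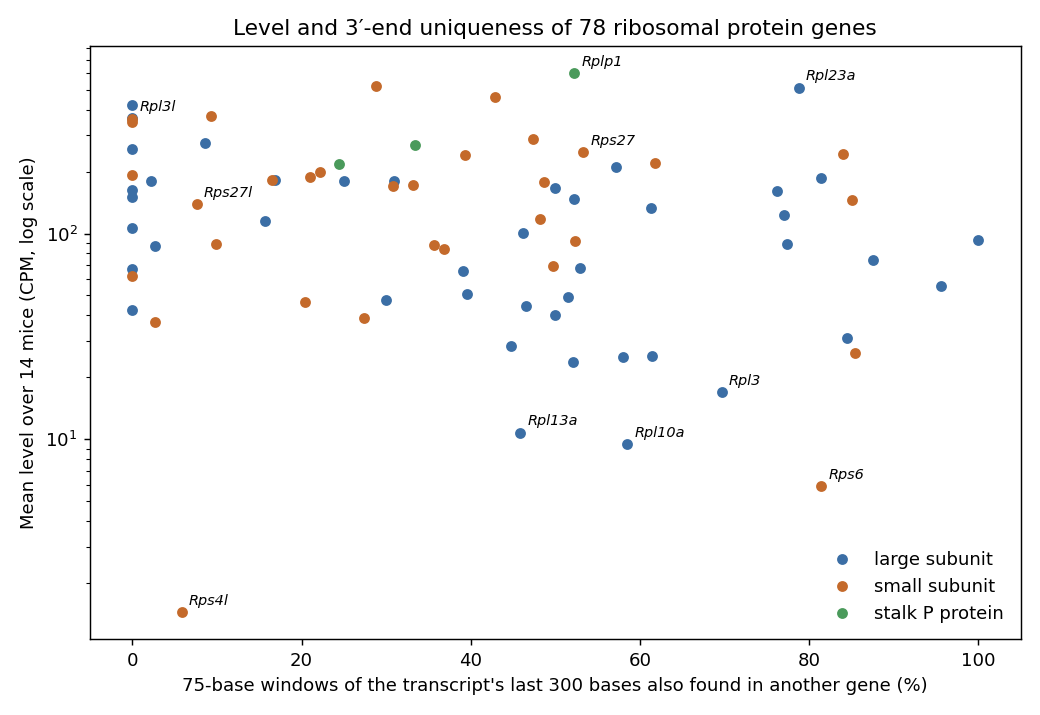
Mean level over 14 mice (CPM, log axis) against the percentage of 75-base windows in the last 300 bases that also occur in another annotated gene, for 78 genes coloured by subunit. Rps6 and Rpl3 lie low with 81.4% and 69.7% shared, Rpl23a lies high with 78.8%, and Rpl3l shares none.

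No ribosomal protein gene passed the test in any comparison. Each gene was tested with edgeR's quasi-likelihood test over all 14 mice, with Benjamini-Hochberg adjustment over 11088 genes at 0.05. Of the 78 tested members, 0 passed for genotype in controls (0% of all genes passed), genotype in runners (0%), running in WT (0.496%), running in FLExDUX4 (0%), genotype averaged over running (0%), running averaged over genotype (0.857%) and the interaction of genotype with running (0%). With library sizes taken from the spike-in RNA, 5 members were called for running in WT (Rps2, Rps9, Rps10, Rpl9 and Rpl31, all higher) and 1 for running averaged (Rps2), where 5.45% and 3.88% of all genes were called and the median of all genes also moved, to 0.37 and 0.21. DESeq2 and limma-voom, fitted to the same counts, also called 0 members in each of the 7. At an unadjusted p under 0.05 the edgeR test had 1, 0, 1, 5, 1, 2 and 1 members in that order, where 5%, 3.16%, 10.7%, 6.66%, 3.77%, 12% and 4.84% of all genes had one. The authors' deposited table likewise gave 0 members an adjusted p under 0.05 in its 4 comparisons of these groups. Its smallest values were 0.0894 for Rps9 between WT controls and WT runners and 0.287 for Rps2 between FLExDUX4 controls and FLExDUX4 runners.

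The intervals say how large a change could have been missed. For running in WT, the 95% interval of the difference stayed within 1.5-fold for 88.5% of the members, against 16.8% of all tested genes. For running in FLExDUX4 these shares were 83.3% and 19.3%, for genotype in controls 73.1% and 17.8%, and for genotype in runners 89.7% and 25.8%. Within 2-fold lay 96.2%, 94.9%, 94.9% and 97.4% of the members in the same order. The interaction was measured less well, with 46 of 78 members within 1.5-fold. Members have high counts, and high counts narrow an interval. The median biological coefficient of variation was 0.166 for members and 0.289 for all genes, but 0.163 for 38 members and 0.167 for 1124 other genes of similar level.

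**Figure D3:**
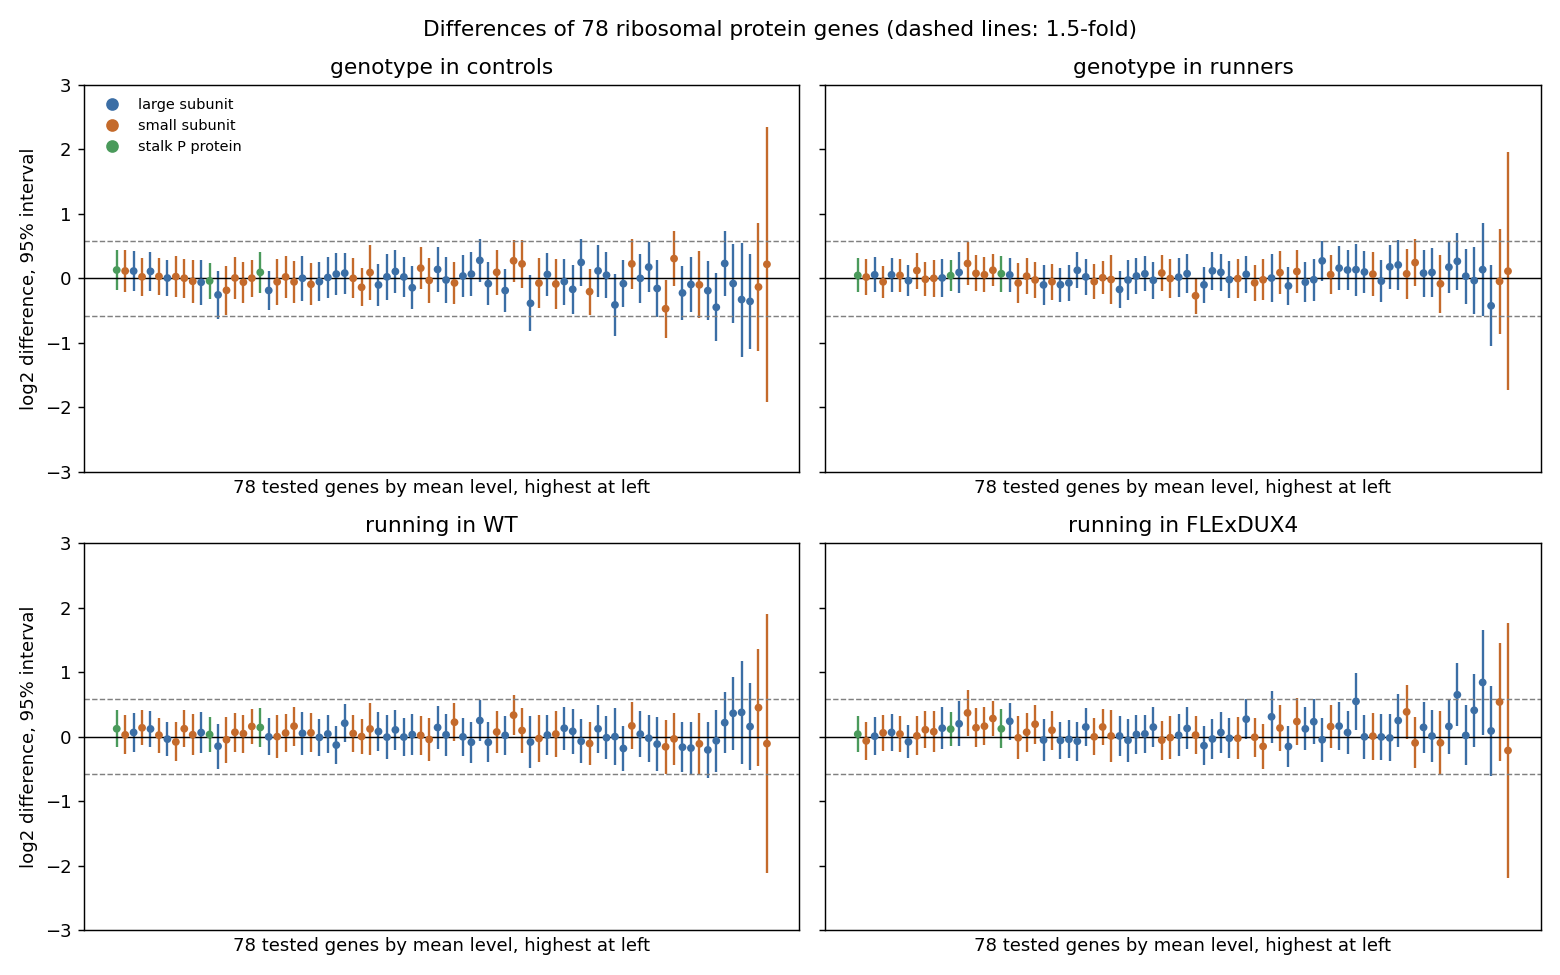
Log2 difference and 95% interval of the 78 tested genes in the 4 comparisons of 2 groups, ordered by mean level from left to right and coloured by subunit, with dashed lines at 1.5-fold. Most intervals lie inside the dashed lines, and the widest belong to the lowest genes at the right.

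The medians lay close to 0. On the log2 scale the median difference of the 78 genes was 0.00 for genotype in controls, 0.04 for genotype in runners, 0.03 for running in WT and 0.06 for running in FLExDUX4. The medians of all genes were 0.00, -0.01, 0.01 and 0.01. Large and small subunit genes gave 0.02 and 0.04 for running in WT, and 0.06 and 0.05 for running in FLExDUX4. The stalk genes Rplp0, Rplp1 and Rplp2 differed by 0.03 to 0.14 for running in WT.

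With TMM library sizes, running in FLExDUX4 had the most members without overlap between the groups. In 9 members every runner was above every control, which is 11.5% of the 78 where 3.72% of all genes did so. Among them were Rps2, Rps13, Rps15, Rps16, Rps19, Rps28, Rpl27 and Rpl31. In 1 member, Rpl36, every runner was below every control, where 3.45% of all genes did so. Rps2, a small subunit protein near the mRNA entry, had 202, 201 and 198 CPM in FLExDUX4 controls and 251, 250, 242 and 231 CPM in FLExDUX4 runners. Its log2 difference was 0.28 ± 0.13 (SE), with an edgeR adjusted p of 0.728. The other 7 named had log2 differences of 0.13 to 0.24, and none of the 9 passed the test. Members moved together from mouse to mouse, as described below, so these 9 are not separate events. The same limit holds for each count of members without overlap. With spike-in library sizes the count of 9 became 3, where 3.62% of all genes were higher without overlap, and running in WT and genotype in controls then had more. With DESeq2-type (RLE) size factors it was 6. The 1 lower member was lost with upper quartile and with spike-in sizes.

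The members with the largest differences were lowly counted. Rpl19, of the large subunit, had 11.8, 25.9 and 19.04 CPM in FLExDUX4 controls and 34.99, 24.8, 31.6 and 27.6 CPM in FLExDUX4 runners. The groups overlap, with FLExDUX4 control 1 the lowest of all mice. The log2 difference was 0.65 ± 0.24 (SE, edgeR adjusted p = 0.633), and that of the interaction 0.71 ± 0.34 (edgeR adjusted p = 0.954). Rpl13a, also of the large subunit, differed by 0.84 ± 0.40 for running in FLExDUX4 (edgeR adjusted p = 0.728), and its levels over all mice ran from 4.32 to 21.5 CPM. At its 3′ end 58.9% of the bases also belong to same-strand exons of other annotated genes, among them Gm45713. Rpl17 differed by 0.55 ± 0.22 (edgeR adjusted p = 0.71), with FLExDUX4 runner 1 highest at 76.0 CPM and FLExDUX4 control 1 lowest at 26.6 CPM. Rps4l (-0.22 ± 0.96) and Rpsa (-0.15 ± 0.17) were, with Rpl36 (-0.15 ± 0.16), the lowest differences.

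Running in WT gave 2 members without overlap, both higher, Rpl29 and Rps9, where 5.74% of all genes were higher and 4.56% lower without overlap. With spike-in sizes the count of 2 became 23, where 18.7% of all genes were higher without overlap. Rps9, of the small subunit, had 70.9, 77.1 and 77.6 CPM in WT controls and 88.3, 84.0, 106 and 101 CPM in WT runners. Its log2 difference was 0.33 ± 0.15 (SE), with an edgeR adjusted p of 0.413. The highest differences here were those of Rps6 (0.45 ± 0.45), Rpl13a (0.38 ± 0.39) and Rpl3 (0.36 ± 0.28). Among the lowest were those of Rpl15 (-0.21 ± 0.21) and Rpl35a (-0.18 ± 0.20), both within about 1 SE of 0.

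For genotype in controls, 4 members were higher in FLExDUX4 without overlap (Rpl9, Rpl27a, Rps9 and Rpsa), 5.13% where 5.93% of all genes were, and 0 were lower, where 5.47% of all genes were. With spike-in sizes the count of 4 became 27, where 18.3% of all genes were higher without overlap. Rpsa, the laminin receptor precursor of the small subunit, had 76.6, 83.6 and 87.6 CPM in WT controls and 98.2, 97.2 and 93.9 CPM in FLExDUX4 controls. Its log2 difference was 0.22 ± 0.18. Rps4x, an X-linked small subunit gene, had 47.7, 36.3 and 46.3 CPM in WT controls against 27.2, 39.1 and 27.9 CPM in FLExDUX4 controls, groups that overlap. Its difference of -0.47 ± 0.22 was the lowest (edgeR adjusted p = 0.969), followed by Rpl19 (-0.45 ± 0.26) and Rpl17 (-0.41 ± 0.23). Rps23 (0.31 ± 0.21), Rpl9 (0.28 ± 0.17) and Rps9 (0.27 ± 0.16) were highest.

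In runners, 0 members were without overlap, where 1.36% of all genes were higher and 1.15% lower. The extremes were Rpl10a (-0.42 ± 0.31), Rps10 (-0.27 ± 0.14) and Rpl11 (-0.17 ± 0.14) on one side. On the other were Rpl21 (0.27 ± 0.16), Rpl19 (0.26 ± 0.22) and Rps23 (0.24 ± 0.18). The counts of Rps10 are uncertain because 57.6% of the bases at its 3′ end lie in exons of an annotated read-through gene.

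Mice of the same group differed more than the groups did. The summed level of all 82 genes was 11797 ± 865 CPM in WT and 11845 ± 772 CPM in FLExDUX4 controls (SD, n = 3 each). Among runners it was 12167 ± 2079 CPM in WT and 12381 ± 256 CPM in FLExDUX4 (SD, n = 4 each). The WT runners had 10130, 10700, 14431 and 13408 CPM, which are the 2 lowest and the 2 highest of all mice. The other 10 mice lay between 10898 and 12718 CPM, and the FLExDUX4 runners between 12102 and 12718 CPM. WT runners 3 and 4 have higher title numbers than WT runners 1 and 2. In the order of these numbers WT controls had 10898, 11869 and 12624 CPM, a rise. FLExDUX4 controls had 12268, 12314 and 10954 CPM and FLExDUX4 runners 12314, 12102, 12390 and 12718 CPM, without a steady rise. A link of level with title number was not tested. In WT runner 3, 37 of the 78 genes had their highest level of any mouse, 47.4% where 7.01% of all genes did. In WT runner 1, 28 of the 78 genes had their lowest level, and the share of all genes lowest there was not computed.

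The median deviation of the members from their mean over groups, on the log2 scale, was -0.24, -0.18, 0.29 and 0.14 in WT runners 1 to 4. Without WT runners 3 and 4, a choice made after seeing these values, the median difference of members was -0.19 for running in WT and 0.25 for genotype in runners, with 0 members called. The deviation was between -0.12 and 0.10 in the other mice, and that of all genes stayed between 0.00 and 0.04. Large and small subunit genes moved alike, at -0.22 and -0.26 in WT runner 1 and 0.27 and 0.31 in WT runner 3. Macrophage markers, 10 of 10 tested and none at 0, summed to 101, 67.7, 161 and 121 CPM in WT runners 1 to 4. The sum in WT runner 3 was the highest of all mice, while the other 13 had 61.0 to 135 CPM. Fibroblast markers (7 of 7 tested) summed to 823, 803, 1056 and 997 CPM in the same 4 mice, higher in runners 3 and 4, and satellite cell markers (5 of 5) to 28.9, 25.8, 17.9 and 15.4 CPM, lower in those 2. The other 10 mice had 778 to 1185 and 16.2 to 31.002 CPM. Slow-fibre markers summed to 862, 150, 174 and 812 CPM, with no such split. In these 3 lists none was at 0. The part of these in the ribosomal protein levels was not tested.

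**Figure D4:**
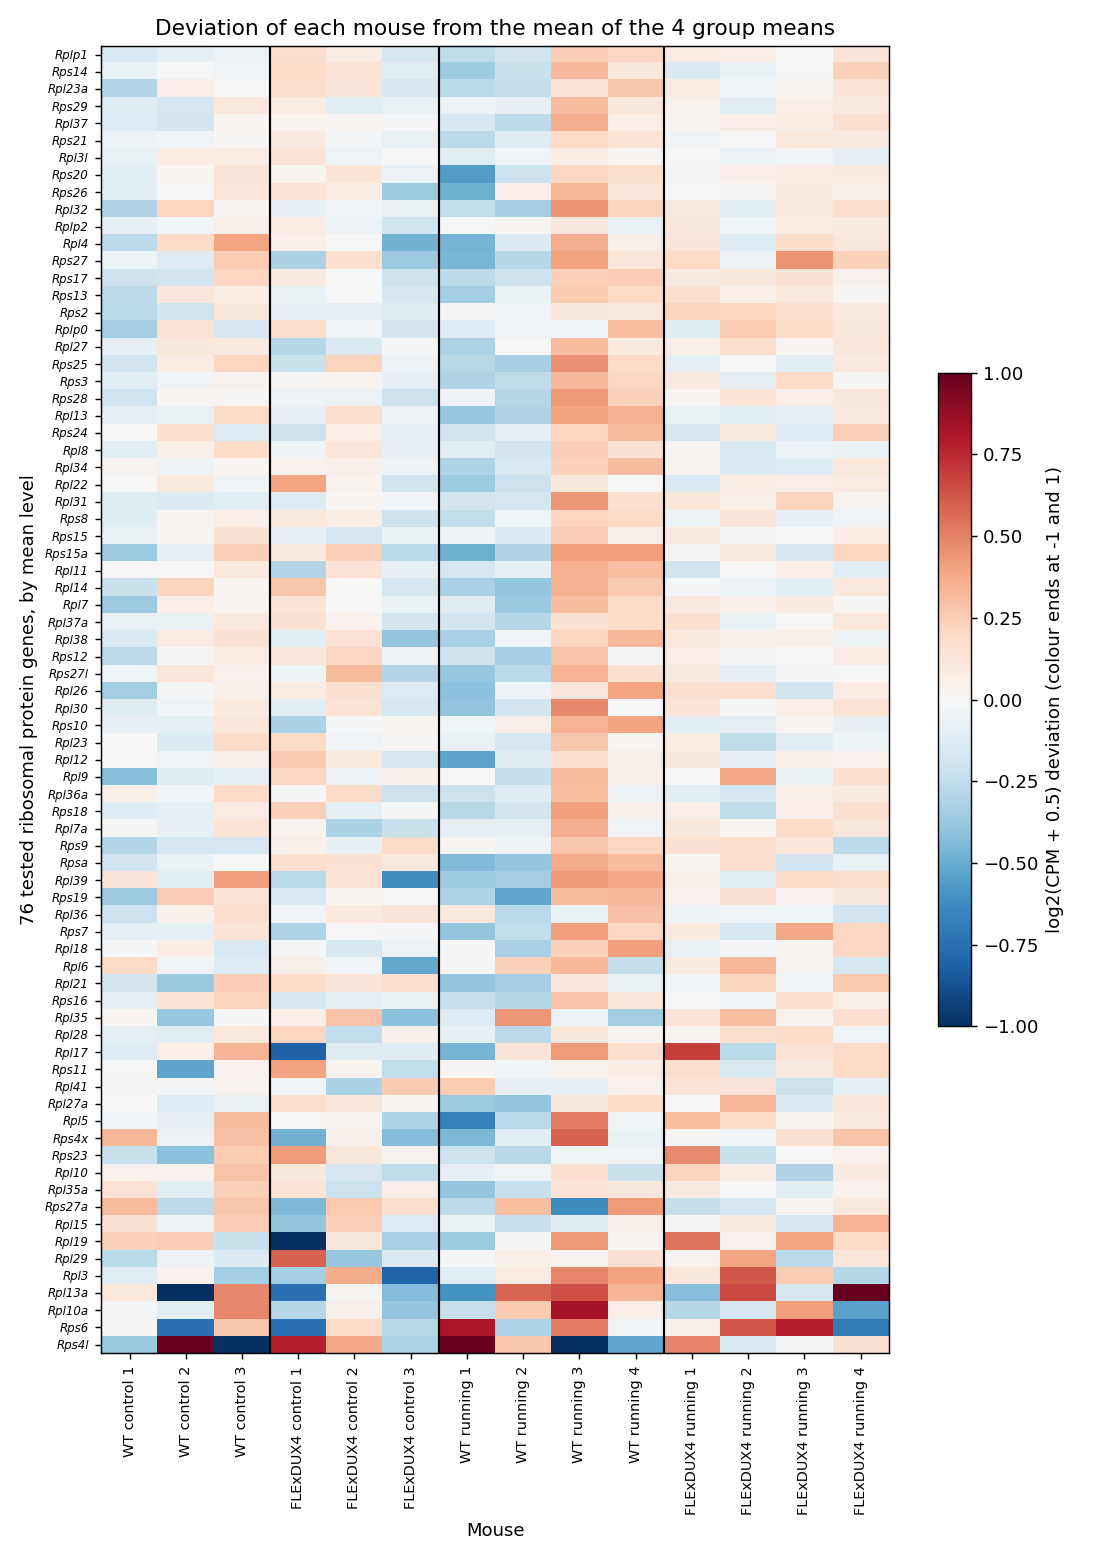
Deviation of each mouse (columns, with lines between the 4 groups) from the mean of the group means, in log2(CPM + 0.5), for 76 of the 78 genes (rows, by mean level); red is higher and blue lower. WT runners 1 and 2 are mostly blue and WT runners 3 and 4 mostly red, at medians of -0.24, -0.18, 0.29 and 0.14.

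The genes therefore moved together from mouse to mouse. Pearson's r between the within-group deviations was computed over 14 mice for the 64 members with a mean of at least 200 counts. The median over 2016 pairs was 0.576, with 90.5% above 0. The median r of these genes was 0.189 with mitochondrial ribosomal protein genes, 0.144 with translation initiation genes and 0.0446 with all other genes of that depth. Without the 4 WT runners, a choice made after seeing the data, the median r was 0.259 among members and 0.0289 with the other genes. All points share libraries and their scaling, so these values are descriptions. Against the mean of the other members, Rpl13 and Rps20 had the highest r (0.94 each), and Rps15a and Rplp1 had 0.93 and 0.92. Rpl13 had 141, 150, 244 and 235 CPM in WT runners 1 to 4, a pattern of 2 low and 2 high mice. Rpl41 (-0.41), Rpl35 (-0.19) and Rpl6 (-0.01) did not follow the others. Rpl41, the smallest ribosomal protein, had 52.6, 41.7, 41.6 and 45.5 CPM in the same mice, so the highest of these 4 values fell in a mouse where the other members were low.

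Rpl3l and Rpl3 had opposite places in the order of levels. Rpl3l had 347, 385 and 383 CPM in WT controls and 400, 355 and 365 CPM in FLExDUX4 controls. It had 338, 355, 383 and 370 CPM in WT runners, and 363, 350, 357 and 341 CPM in the FLExDUX4 mice that ran. Its highest mouse was 1.18 times its lowest, the smallest ratio of any tested member. Rpl3 had 14.9, 16.6 and 12.6 CPM in WT controls and 12.6, 20.9 and 9.005 CPM in FLExDUX4 controls. It had 14.8, 17.05, 22.7 and 21.4 CPM in WT runners, and 17.5, 25.03, 19.3 and 13.1 CPM in the FLExDUX4 mice that ran. Neither separated the groups. The Rpl3l share of the pair was 96.2% ± 0.543 in WT and 96.3% ± 1.67 in FLExDUX4 controls (SD, n = 3 each). Among runners it was 95.04% ± 0.679 in WT and 94.98% ± 1.24 in FLExDUX4 (SD, n = 4 each).

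The share was tested on its log2 ratio by exact permutation, two-sided. The mice allow only 35 splits for running, 20 for genotype in controls and 70 for genotype in runners. With so few splits, no 1 of these tests could alone reach an adjusted p under 0.05. They therefore cannot decide whether the share differs. For running in WT every runner lay below every control, with a difference of -0.39 and an exact p of 0.0571, or 0.152 after adjustment over 8 tests. The nearest mice were WT runner 1 at 95.80% (95% binomial interval 94.8 to 96.7) and WT control 2 at 95.86% (94.9 to 96.7). Their order is within counting error. For running in FLExDUX4 the difference was -0.53 (exact p = 0.257), and for genotype 0.14 in controls (exact p = 0.9) and 0.00 in runners (exact p = 0.971). Rpl3l shares none of its 3′ windows with another gene and Rpl3 shares 69.7%, and the part of this in the share was not tested.

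**Figure D5:**
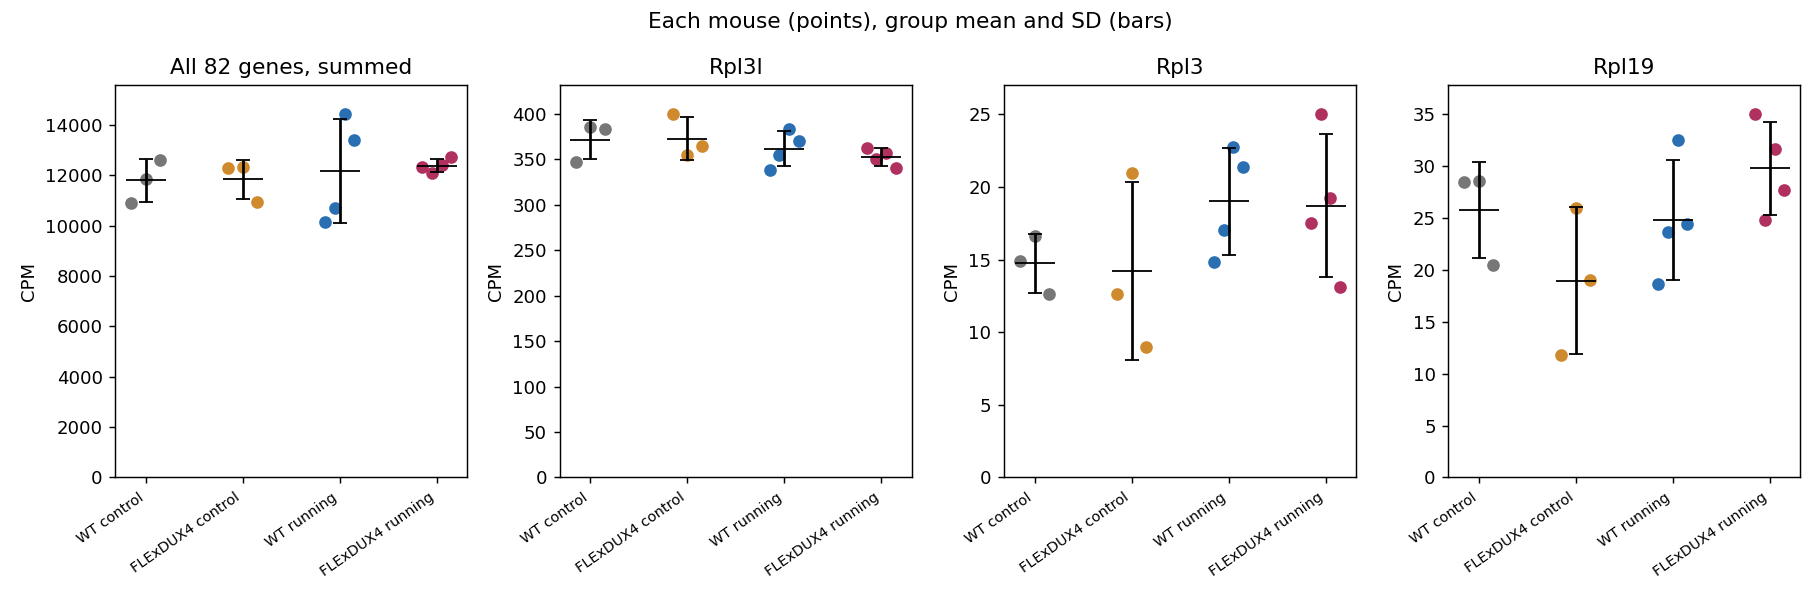
Summed level of the 82 genes and levels of Rpl3l, Rpl3 and Rpl19 in CPM for each mouse (points) by group, with the group mean and SD (bars). The WT runners spread from 10130 to 14431 CPM in the sum, Rpl3l stays between 338 and 400 CPM, and Rpl3 and Rpl19 overlap between all groups.

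Rps27 and Rps27l encode close copies of a zinc-finger protein of the small subunit, and both were well expressed. Rps27 had 233, 221 and 288 CPM in WT controls and 195, 271 and 188 CPM in FLExDUX4 controls. Its runners had 176, 198, 319 and 263 CPM when WT and 277, 231, 330 and 283 CPM when FLExDUX4. Rps27l had 134, 151 and 143 CPM in WT controls and 134, 173 and 113 CPM in FLExDUX4 controls. Its runners had 106, 115, 176 and 156 CPM when WT and 148, 129, 137 and 139 CPM when FLExDUX4. Both overlap between all groups. The Rps27l share was 36.8% ± 3.71 in WT and 39.1% ± 1.56 in FLExDUX4 controls (SD, n = 3 each), and 36.8% ± 0.885 in WT and 33.2% ± 2.88 in FLExDUX4 runners (SD, n = 4 each). It was lower in every FLExDUX4 runner than in every FLExDUX4 control (log2 ratio difference -0.37, exact p = 0.0571, adjusted 0.152, two-sided permutation). The nearest mice were FLExDUX4 runner 2 at 35.8% (95% binomial interval 33.25 to 38.5) and FLExDUX4 control 3 at 37.6% (35.6 to 39.6), whose intervals overlap. Between runners of the 2 genotypes the difference was -0.23 (exact p = 0.0571, adjusted 0.152). These tests have the same few splits as those of Rpl3l and the same limit.

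Genes just outside the symbol rule were looked at in the same way. Rpl22l1, a copy of Rpl22, had 65.3 CPM and made up 24.8% to 28.3% of its pair in the 4 group means. Rpl7l1 had 20.6 CPM, Rpl36al 9.42 CPM and Rps3a1, the mouse symbol of a core small subunit gene, 54.6 CPM. Fau, which encodes a fusion to Rps30, had 46.5 CPM. None of these passed a test.

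Other genes of translation were read from fixed lists. For running averaged over genotype 0.857% of all genes were called. In that comparison 0 of 10 elongation, 0 of 29 initiation, 0 of 13 other TOP and 0 of 44 ribosome biogenesis genes were called. The median log2 differences were -0.02, -0.10, 0.06 and -0.15, with 5, 6, 9 and 11 genes above 0, beside 0.01 for all genes and 0.07 for the ribosomal protein genes, of which 54 of 78 were above 0. Of the 76 tested mitochondrial ribosomal protein genes 62 were above 0, at a median of 0.14, and 0 were called. In the mitochondrial list the smallest p belonged to Mrpl34 (0.43 ± 0.11, edgeR adjusted p = 0.0547) and Mrpl47 (0.58 ± 0.18, edgeR adjusted p = 0.105). In the elongation, initiation and biogenesis lists it belonged to Eef2k, the kinase that inhibits elongation factor 2 (-0.43 ± 0.14, edgeR adjusted p = 0.126), Eif4g1, an initiation scaffold (-0.29 ± 0.10, edgeR adjusted p = 0.167), and Ncl, nucleolin (-0.27 ± 0.10, edgeR adjusted p = 0.224).

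Of 23 tested mTORC1 and TOP regulators 1 was called, Rragd, a Rag GTPase that brings mTORC1 to the lysosome. Of all genes, 0.496% were called for running in WT and 0.857% for running averaged over genotype. For running in WT, 4.56% of all genes were lower without overlap. Rragd fell from 205, 179 and 190 CPM in WT controls to 105, 118, 147 and 104 CPM in WT runners, without overlap, by 0.69 ± 0.15 on the log2 scale (edgeR adjusted p = 0.0388). Averaged over genotype it fell by 0.42 ± 0.11 (edgeR adjusted p = 0.0463). Mrpl4, of the mitochondrial large subunit, was the 1 mitochondrial ribosomal protein gene called for running in WT. It rose from 36.4, 37.6 and 32.5 CPM to 62.1, 55.9, 56.8 and 66.5 CPM, by 0.76 ± 0.17 (edgeR adjusted p = 0.0411). Both calls for running in WT were lost when any 1 WT control was left out (edgeR adjusted p = 0.111 to 0.190), and with limma-voom (adjusted p = 0.0574 for Rragd and 0.0748 for Mrpl4). They were also lost without WT runner 1 or 4 or FLExDUX4 runner 1 or 3, and that of Mrpl4 without FLExDUX4 control 1 or 2. In all of these the log2 difference of Rragd stayed between -0.74 and -0.63 and that of Mrpl4 between 0.71 and 0.81. With spike-in sizes the difference of Rragd was -0.33 for running in WT (edgeR adjusted p = 0.242) and -0.22 averaged (edgeR adjusted p = 0.339). The averaged call of Rragd was lost at an edgeR adjusted p of 0.0890 to 0.141 without any 1 WT control, where its difference was -0.44 to -0.39. It was also lost without WT runner 1, 2 or 4, FLExDUX4 runner 1, 2 or 3, or FLExDUX4 control 1 or 3, at differences of -0.43 to -0.37.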

How the data were processed

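Triceps RNA of 14 mice was sequenced from the 3′ end (QuantSeq FWD, single reads of 75 bases), per the labels' protocols. The deposited table holds raw read counts per gene and mouse. Per the submitters' processing notes the tools were cutadapt 1.16, FastQC 0.11.7, STAR 2.5.3a, featureCounts 1.6.2 and DESeq2, with GRCm38 and GRCh38. Annotation release, strand setting and treatment of reads with several alignments are not given in the sources used here. The authors' log2 fold changes and p-values in the same table were used only where named.

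From the counts, 99 spike-in rows were set aside, genes were kept by filterByExpr (minimum count 10, leaving 11088) and fitted with edgeR 4.0.16 in R 4.3.3 (TMM, robust quasi-likelihood, 1 mean per group, 7 contrasts). Standard errors come from the model's information matrix. Deviations used log2(CPM + 0.5). Alternatives were DESeq2 1.42.0, limma-voom 3.58.1, other scalings and filters, and leaving out mice. The fit was tested on simulated data. Coordinates and 3′ windows come from GENCODE M21 (GRCm38), and 75 of 82 genes had the same start there as in the table.

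Members, gene lists and tests were chosen with earlier results of these data known. Named are the 3 highest and 3 lowest differences of each comparison of 2 groups, the 5 highest levels, a set of paralogs and stalk genes, and called or lowest-p genes of each list. Some genes that this rule or the lists name are not reported here, and 2 members are left out of the plots that name genes. Members with an unadjusted p under 0.05, without overlap, or at the ends of the correlation order were named after their values were seen. Nothing states that mice of a group were unrelated, and the WT mice were littermates of FLExDUX4 mice. The tests set differences against the spread between these samples. They take the mice as independent and have no term for litter. The labels name no molecular identifiers, so reads may repeat molecules.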

Additional observations from a re-analysis of the deposited data

Results flagged for a closer look

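Among 80 groups of 4 mice (40 measures in the 2 groups of runners), 2 values stood far from the other mice of their group by Dixon's test at the 95% level, where chance flags about 1 group in 20. Both belong to FLExDUX4 runner 4. Rpl36 was 65.1 CPM there and 71.7 to 72.3 CPM in the other 3. Rps9 was 72.5 CPM there and 94.5 to 97.7 CPM in the other 3. Groups of 3 mice were not tested. No interaction of genotype with running passed the threshold for a member.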

How the results depend on the processing

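No paired analysis was possible because replicate numbers follow record order and pair no mice. The count of called members stayed at 0 in the 7 comparisons under every alternative except library sizes from the spike-in RNA, where 5 members were called for running in WT (Rps2, Rps9, Rps10, Rpl9 and Rpl31, all higher) and 1 for running averaged over genotype (Rps2), where 604 (5.45%) and 430 (3.88%) of 11088 genes were called. With those sizes the median log2 difference of members was 0.30 for genotype in controls, 0.39 for running in WT, 0.15 for genotype averaged, 0.25 for running averaged and -0.30 for the interaction, and that of all genes 0.31, 0.37, 0.14, 0.21 and -0.32. Members without overlap were also counted with spike-in sizes, a choice made after seeing the data. Those higher went from 4 to 27 for genotype in controls, from 2 to 23 for running in WT and from 9 to 3 for running in FLExDUX4. Of all genes, 18.3%, 18.7% and 3.62% were then higher without overlap, against 5.93%, 5.74% and 3.72% with TMM sizes. WT controls had the fewest ribosomal protein counts per spike-in count (0.758 to 0.907, against 0.912 to 1.29 in the other mice).

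Leaving out 1 mouse at a time kept the medians within -0.07 and 0.13. WT runners 3 and 4, chosen after their high values were seen, were also left out together: the median became 0.25 for genotype in runners, -0.19 for running in WT and 0.24 for the interaction, still with 0 members called, so these medians rest on which WT runners are included. This also turned Rpl11 (0.080, genotype in runners) and Rps27 (-0.016, running averaged).

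Of 908 values of 34 named member differences, 12 changed sign and 2 passed the threshold, both with spike-in sizes. Spike-in sizes turned Rpl15 (0.16) and Rpl35a (0.18) for running in WT, and Rpl3l (0.14) and Rps27l (0.15) for running averaged. Rps27l also turned without WT runner 1 (0.024), WT runner 2 (0.011) or FLExDUX4 control 2 (0.064), and leaving out each mouse gave -0.099 to 0.064. Rps4l turned for running in FLExDUX4 with limma-voom (0.11), without FLExDUX4 control 1 (0.14, the highest with 1 mouse left out, where the lowest was -0.55) and without FLExDUX4 control 1 and WT runner 2 together (0.15). The cause was not tested. Depth limits Rps4l, Rps6, Rpl10a and Rpl13a most.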
